A study of Zea mays with 50 samples.

Results

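The libraries of maize leaf protoplasts that expressed the TCP transcription factor TCP23 were compared with libraries of protoplasts that expressed GFP alone. They were chosen by the construct named in the labels, and they are 2 of the 50 libraries of the series, from protoplast preparations (preps) 1 and 3. Their partners are the 2 GFP libraries of the same preps. A second comparison set the TCP23 libraries against the 20 libraries of the 10 other regulators expressed in those preps, bHLH103, CSD4, DOF25, HSF2, NAC119, NAC29, OCL4, ZFL2, ZHD5 and ZIM13. All 30213 rows of the deposited table were considered, of which 28122 reached at least 1 RPKM (reads per kilobase of a row, scaled to the size of the library) in at least 2 of the 50 libraries and were tested.

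All cells came from the inbred line B73. The TCP23 cells carried TCP23 with GFP at its N-terminus under the constitutive 35S promoter, and the control cells carried GFP under the same promoter. The other regulators of these preps were also fused to GFP under that promoter. The labels name GFP before the regulator, as for TCP23, in all of them but ZFL2, where GFP comes after it. For each prep, leaves of more than 10 etiolated seedlings, grown in the dark at 25 °C for 10 to 12 days, were pooled, so a library is a pool of seedlings and not a single plant. Polyadenylated RNA was sequenced with a strand-keeping kit. The cells are leaf cells without walls that briefly carry an added construct, and each group has 1 library per prep. The table does not separate cells that took up the construct from cells that did not. In such bulk samples, fewer cells of a type and less RNA per cell cannot be told apart.

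TCP proteins are plant transcription factors named after TEOSINTE BRANCHED, CYCLOIDEA and the PCF proteins, and they bind DNA through a non-canonical basic helix-loop-helix domain. Class I members are known from rice and Arabidopsis for binding promoters of cell cycle and ribosomal protein genes, and class II members for restraining growth in leaves and axillary buds and, in Arabidopsis, for acting on jasmonate synthesis genes. The series asked which regulators act on loci that make reproductive phasiRNAs, phased small RNAs cut from long precursor transcripts (PHAS transcripts) in anthers. The labels do not give the class of TCP23.

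The TCP23 libraries held 9614394 reads in prep 1 and 10729054 in prep 3, and the GFP libraries held 7603575 and 9675061. Over the 24 libraries of preps 1 and 3, pairs of libraries correlated between 0.949 and 0.981 on the log2 scale, with 0.975 for the TCP23 pair and 0.970 for the GFP pair. Mesophyll markers were present, with summed levels of 170 and 221 RPKM in TCP23 cells against 140.0 and 131 RPKM in GFP cells, for 3 of 6 markers found by name. Most of each sum came from 1 row of pdk1, GRMZM2G306345, at 109 and 155 RPKM in TCP23 cells and 93.2 and 82.8 RPKM in GFP cells. Of the 5 rows summed, the pdk1 row GRMZM2G097821 was lower in TCP23 cells, at 13.4 and 11.9 RPKM against 14.5 and 13.5 RPKM. The C4 carboxylase gene pep1, a defining mesophyll marker of green leaves, was at 0.252 and 0.544 RPKM in TCP23 cells and at 0.237 and 0.464 RPKM in GFP cells. Bundle sheath markers, 2 of 5 found, summed to 14.8 and 15.1 RPKM in TCP23 cells and to 15.4 and 10.3 RPKM in GFP cells, and the part of cell makeup in the results below was not tested.

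A single row stood out in the TCP23 libraries by its change from GFP. GRMZM2G120151, which the reference pairs with no gene name, stood at 5473 and 8405 RPKM in the TCP23 cells of preps 1 and 3 (6939 ± 2073 RPKM, SD, n = 2), against 0.0547 and 0.171 RPKM in the GFP cells. These values rest on 125777 and 201081 reads in TCP23 cells and on 1 and 4 reads in GFP cells. It was the row of rank 7 in the first and rank 2 in the other TCP23 library, and it took 1.31% and 1.87% of their reads. In the 48 libraries without TCP23 the median was 0.228 RPKM, and the highest was 3.49 RPKM, in MYB131 cells of prep 2. Both MYB131 libraries, at 1.34 and 3.49 RPKM, stood above the 46 remaining ones, which reached at most 0.621 RPKM. The log2 change against GFP was 13.44, on the log2(RPKM + 0.5) scale used throughout. That value depends on the 0.5 added and is no bound. This row was taken as the one fed by the construct because it had the largest change of all rows, so its level is a description, with no test. The next largest log2 rise, 3.53 in GRMZM5G844124, did not pass the test. Reads of the construct and of the cells' own gene cannot be told apart in a row.

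**Figure D1:**
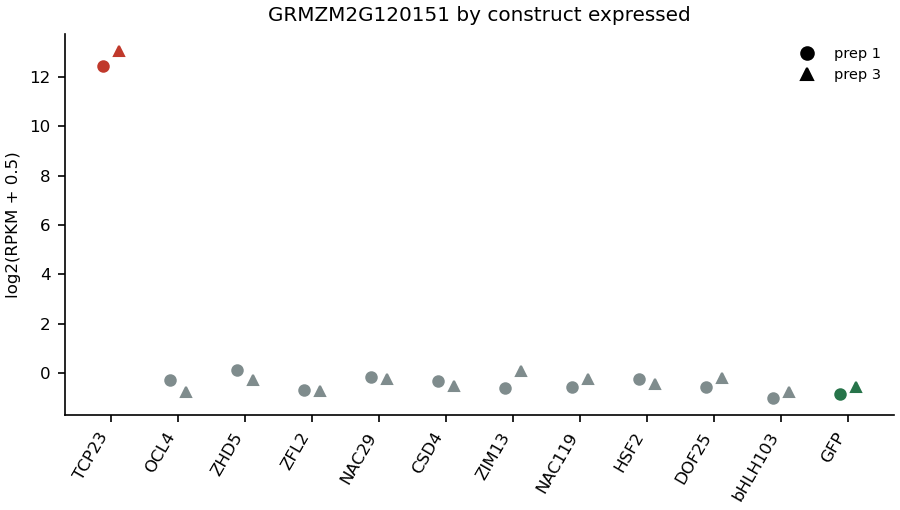
Level of GRMZM2G120151 as log2(RPKM + 0.5), for each construct expressed in preps 1 (circles) and 3 (triangles), with TCP23 in red, the 10 other regulators in grey and GFP in green. The 2 TCP23 libraries lie above 12 on this scale, and all other libraries shown lie near or below 0.

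Against GFP, few other rows passed the test, and all that did were higher in TCP23 cells. With limma, 6 of 28122 rows (0.0213%) had a Benjamini-Hochberg adjusted p below 0.05 together with a log2 change of 1 or more in size, GRMZM2G120151 among them, and 7 rows (0.0249%) had such a p without the rule on size. No row was lower in TCP23 cells at that threshold, either with limma on RPKM or with limma-voom on recovered reads, while 1439 rows (5.12%) had an unadjusted p below 0.05 in that direction and 1933 rows (6.87%) in the other. The 6 rows beside GRMZM2G120151 are 5 that the reference pairs with no name and MYB103, a member of the MYB family of transcription factors.

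GRMZM2G070013 stood at 6.79 and 15.7 RPKM in TCP23 cells and at 1.88 and 3.17 RPKM in GFP cells. The groups did not overlap, and the row rose by 1.88 ± 0.25 on the log2 scale (SE, adjusted p = 0.000767). GRMZM2G025200 stood at 6.02 and 5.89 RPKM in TCP23 cells and at 0.962 and 1.18 RPKM in GFP cells, with little spread within either group. Its log2 change was 2.04 ± 0.31 (adjusted p = 0.00423), from 110 and 112 reads in TCP23 cells against 14 and 22 in GFP cells. The more strongly expressed GRMZM5G889052 was at 26.3 and 40.3 RPKM in TCP23 cells and at 11.7 and 14.9 RPKM in GFP cells, and rose by 1.27 ± 0.21 (adjusted p = 0.0138). In all 3 rows every TCP23 library lay above every GFP library, but the rows were picked by this difference. Over all 28122 rows, both TCP23 libraries lay above both GFP libraries in 19.5% and below them in 20.5%.

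MYB103 (GRMZM2G111045) was at 1.17 and 1.91 RPKM in TCP23 cells and at 0.147 and 0.574 RPKM in GFP cells. Its log2 change was 1.27 ± 0.24 (adjusted p = 0.0494), and it rests on 20 and 34 reads in TCP23 cells against 2 and 10 in GFP cells. GRMZM2G422670 was at 1.02 and 2.26 RPKM in TCP23 cells and at 0.240 and 0.188 RPKM in GFP cells, where each value is 3 reads, with a log2 change of 1.52 ± 0.28 (adjusted p = 0.0494). The row that passed on p alone, GRMZM2G016649, was at 23.3 and 31.2 RPKM in TCP23 cells and at 13.4 and 16.0 RPKM in GFP cells, a log2 rise of 0.86 ± 0.12 (adjusted p = 0.000904). In TCP23 cells prep 3 was the higher prep in each of these rows.

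These calls turned on single libraries and on the prep term of the model. The 6 calls became 2 without the TCP23 library of prep 1, 2 without that of prep 3, 3 without the GFP library of prep 1 and 2 without that of prep 3. Apart from GRMZM2G120151, only GRMZM2G070013 held under 3 of these 4 omissions, and it had an adjusted p of 0.118 without the TCP23 library of prep 3. A fit of preps 1 and 3 alone called 4 rows higher and 2 lower, and 1 row was called lower without the TCP23 library of prep 3. Without prep in the model, GRMZM2G120151 and GRMZM2G025200 (adjusted p = 0.00407) were called, and GRMZM2G070013 had an adjusted p of 0.155.

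The same rows did not pass the test against the other regulators, which also lay mostly above GFP. All 10 other regulators lay above GFP in both preps for GRMZM2G070013, GRMZM2G016649, GRMZM2G025200, MYB103 (GRMZM2G111045) and GRMZM2G422670, and 9 in prep 1 and 10 in prep 3 did for GRMZM5G889052. GRMZM2G070013, for one, ranged from 2.55 to 18.4 RPKM over the 20 other libraries with a median of 5.46 RPKM, and NAC29 cells, at 13.2 and 18.4 RPKM, were above TCP23 cells in both preps. GRMZM2G025200 was at 1.64 to 5.38 RPKM in those libraries, so that both TCP23 values lay just above all of them. Within each prep GRMZM2G422670 also lay above all 10. It was at 1.02 against at most 0.9505 RPKM in prep 1 and at 2.26 against at most 2.22 RPKM in prep 3. None of the 6 passed the test of TCP23 against the other regulators, where their log2 changes were 0.22 to 0.81 and the lowest adjusted p was 0.272, for GRMZM2G070013. Both comparisons share the TCP23 libraries, and all regulators share the 2 GFP libraries.

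**Figure D2:**
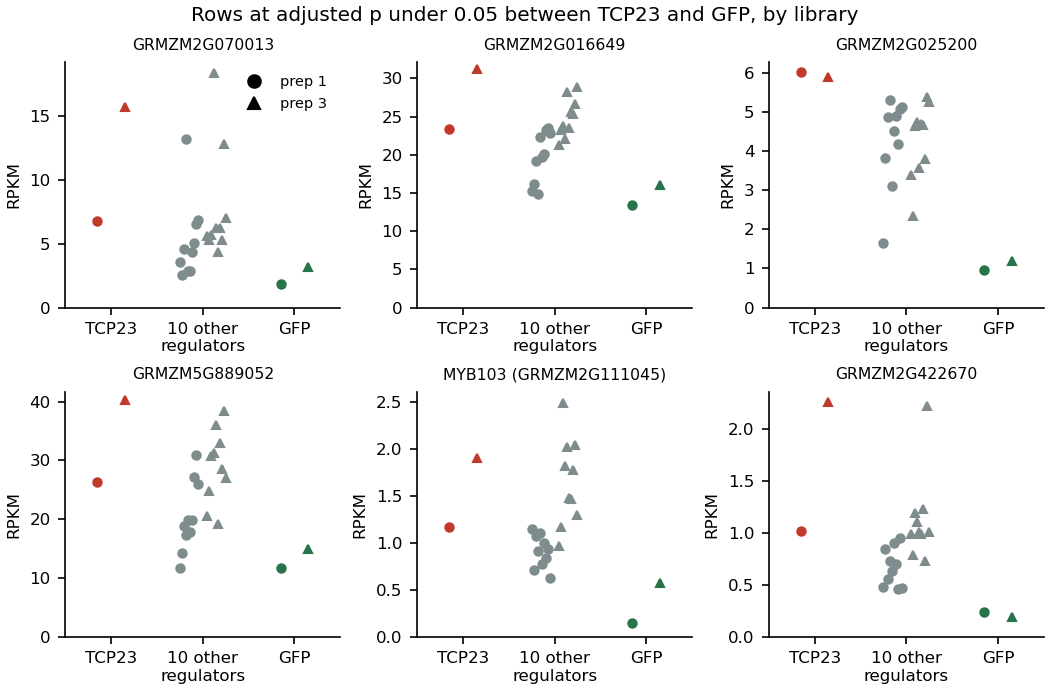
RPKM of the 6 rows other than GRMZM2G120151 with an adjusted p below 0.05 between TCP23 and GFP, 1 point per library, as circles for prep 1 and triangles for prep 3. In each panel the 2 TCP23 points lie above the 2 GFP points, and nearly all grey points of the 10 other regulators also lie above GFP.

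Against the other regulators, GRMZM2G120151 was the only row that was higher in TCP23 cells at an adjusted p below 0.05. In that comparison 6 of 28122 rows (0.0213%) passed with the rule on size, 1 higher (0.00356%) and 5 lower (0.0178%), and 9 (0.0320%) passed without it, 1 higher (0.00356%) and 8 lower (0.0284%). In 6 of the 8 lower rows, 1 other regulator stood far above all other constructs, and its values enter the mean that TCP23 was set against. GRMZM2G180190 was at 0.124 and 0.119 RPKM in TCP23 cells and at 6002 and 6525 RPKM in ZFL2 cells. GRMZM2G108865 was at 0 in both TCP23 libraries and at 2871 and 3645 RPKM in DOF25 cells. The same held for CSD4 (GRMZM5G895313) with CSD4, HSF2 (GRMZM2G088242) with HSF2 and, at 47.9 and 31.4 RPKM, GRMZM2G139700 with NAC119. GRMZM2G438438 was at 3563 and 3953 RPKM in ZHD5 cells. In TCP23 cells it was at 0.487 and 0.364 RPKM, below 7 of the 10 other regulators in prep 1 and all 10 in prep 3, and below 0.815 and 1.38 RPKM in GFP cells (−0.77 ± 0.35 against GFP, adjusted p = 0.376).

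In the other 2 rows TCP23 cells lay below every one of the 10 other regulators in both preps. GRMZM2G591745 was at 2.09 and 6.02 RPKM in TCP23 cells, against a lowest of 4.64, a median of 19.4 and a highest of 30.1 RPKM in the other regulators' libraries, and 7.87 and 23.6 RPKM in GFP cells. It fell by 2.23 ± 0.38 on the log2 scale against the other regulators (adjusted p = 0.0164). Against GFP its log2 change was −1.79 ± 0.52 (adjusted p = 0.183). The TCP23 values are 2 and 6 reads and the GFP values 6 and 23 reads, so counting error is large. GRMZM2G125156 was at 4.12 and 3.71 RPKM in TCP23 cells, against 5.25 to 8.80 RPKM in the other regulators' libraries and 5.49 and 6.07 RPKM in GFP cells. Its fall was smaller, at −0.66 ± 0.12 against the other regulators (adjusted p = 0.0362), and it did not pass against GFP (−0.51 ± 0.16, adjusted p = 0.234). Not all of the 6 calls with the rule on size held when either TCP23 library was left out. GRMZM2G591745 and GRMZM2G125156 did not pass in either of those fits. Without the TCP23 library of prep 1, their log2 changes against the other regulators were −1.79 and −0.74. Without that of prep 3, they were −2.67 and −0.57.

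**Figure D3:**
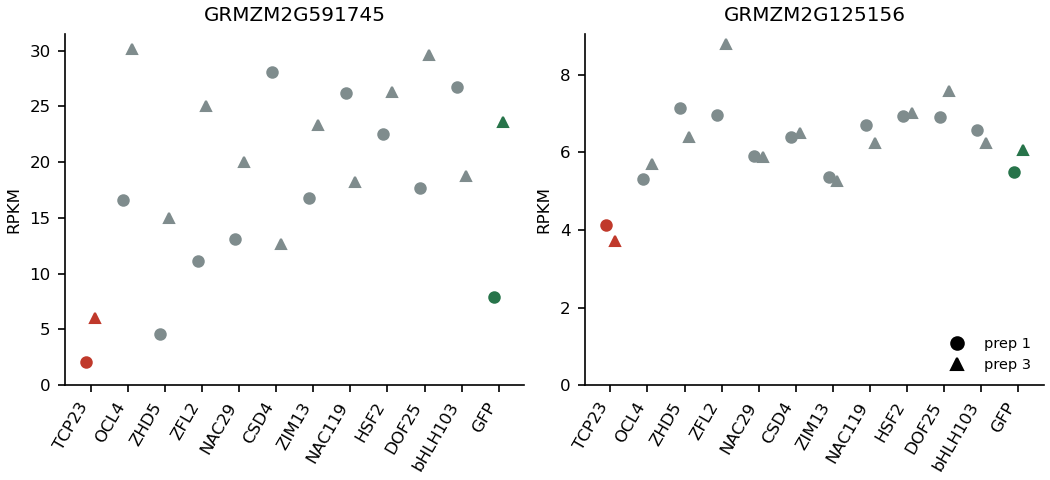
RPKM of GRMZM2G591745 and GRMZM2G125156 by construct, for prep 1 (circles) and prep 3 (triangles). Within each prep the red TCP23 point is the lowest of the 12 constructs in both rows.

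Over the whole table, the differences from GFP were repeated only in part between the preps. Leaving out GRMZM2G120151, the log2 changes of TCP23 against GFP had an SD of 0.468 in prep 1 and 0.489 in prep 3, and 60.4% of 28121 rows had the same sign in both. In both preps 156 rows were at least 1 log2 unit higher in TCP23 cells and 66 at least 1 lower, and 99 rows changed by that much in opposite directions. The changes of TCP23 against the mean of the other regulators were smaller, with an SD of 0.308 and 0.317, and 53.6% of rows agreed in sign. Here 7 rows were at least 1 higher in both preps, 21 at least 1 lower, and 30 opposite. GFP is 1 library per prep and the other reference a mean of 10, and the part of this in the spreads was not tested.

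**Figure D4:**
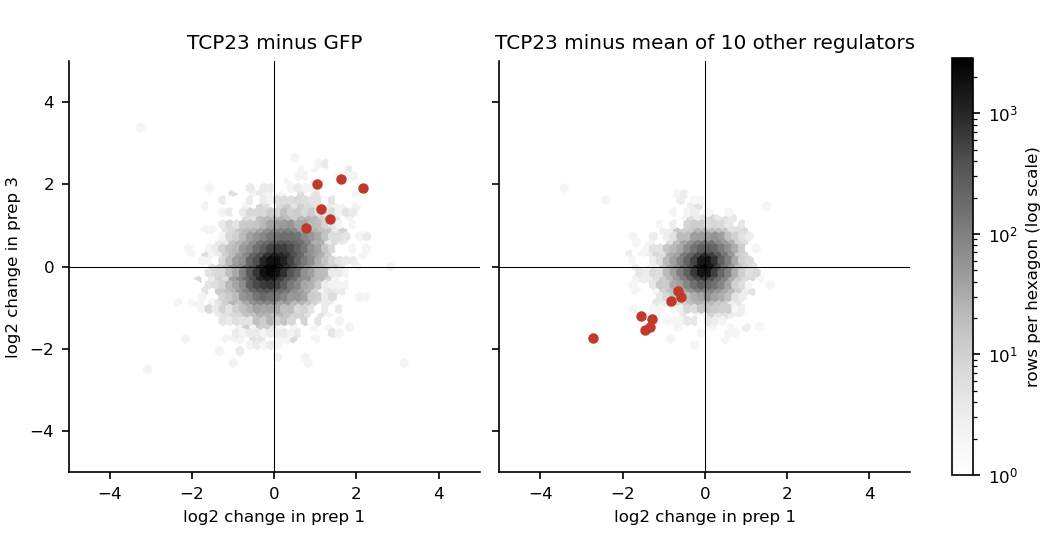
Log2 change of each tested row in prep 1 (x axis) and prep 3 (y axis), for TCP23 minus GFP on the left and TCP23 minus the mean of the 10 other regulators on the right, with darker hexagons holding more rows and GRMZM2G120151 left out. Red points are the rows with an adjusted p below 0.05, 6 on the left and 8 on the right, and the cloud on the left is wider than that on the right.

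Among the 12 constructs of preps 1 and 3, TCP23 was near the middle in its number of extreme rows. It was the highest construct in both preps for 174 rows (0.619%), against 98 to 1515 for the other regulators, with a median of 195, and 833 for GFP. It was the lowest in both preps for 156 rows, against 92 to 1275 for the other regulators, with a median of 203.5, and 748 for GFP. With a gap of at least 0.5 log2 units to the next construct in both preps, TCP23 was highest in 1 row, GRMZM2G120151, and lowest in 1 row, GRMZM2G591745. Each of the other regulators had such rows too, 1 to 241 highest and 1 to 8 lowest with a median of 2 for both, and GFP had 2 highest and 13 lowest. GFP cells were thus at an extreme more often than TCP23 cells, and differences from GFP that all regulators share appear in each regulator's own comparison. An unadjusted p below 0.05 was found for 3372 rows (12.0%) against GFP and for 1465 rows (5.21%) against the other regulators, of which 769 (2.73%) were higher and 696 (2.47%) lower in TCP23 cells. In 599 rows both held with the same sign, 17.8% of those against GFP and 40.9% of those against the other regulators.

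The other TCP genes did not pass the test in either comparison, beside 0.0249% of all rows against GFP and 0.032% against the other regulators. Of 5 TCP genes matched by name, 3 were expressed highly enough to be tested. TCP30 was at 1.48 and 1.91 RPKM in TCP23 cells and at 0.894 and 1.5 RPKM in GFP cells, with a log2 difference of 0.38 ± 0.28 (adjusted p = 0.618). TCP4 was at 0.824 and 0.879 RPKM in TCP23 cells and at 0.345 and 0.360 RPKM in GFP cells, with a difference of 0.66 ± 0.39 (adjusted p = 0.514). Its TCP23 values both lay above its GFP values, as in 19.5% of all rows. TCP12 was at 1.13 and 1.32 RPKM in TCP23 cells, below 1.91 and 1.59 RPKM in GFP cells (−0.38 ± 0.24, adjusted p = 0.554).

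The PHAS transcripts, the precursors that the series set out to study, did not pass the test in TCP23 cells either. Over all rows, 0.0249% passed it against GFP. Of 9 PHAS rows 7 were tested, with log2 differences against GFP between −0.22 and 0.38 and a median of 0.13, beside −0.01 over all rows tested. The only abundant one, 24PHAS_NO166, was at 238 and 305 RPKM in TCP23 cells and at 219 and 277 RPKM in GFP cells (0.13 ± 0.14, adjusted p = 0.767). In each prep the TCP23 value was somewhat above the GFP value, and the groups overlapped. 21PHAS_NO232 was at 4.38 and 5.94 RPKM in TCP23 cells and at 3.56 and 4.06 RPKM in GFP cells (0.38 ± 0.43, adjusted p = 0.768), and 24PHAS_NO8 at 2.18 and 3.56 RPKM in TCP23 cells and at 1.37 and 4.29 RPKM in GFP cells. The remaining 4 tested PHAS rows were below 6 RPKM in all of these libraries. Against the other regulators the median log2 difference of the 7 rows was 0.10. The median against GFP was 0.25 without the TCP23 library of prep 3 and 0.30 without the GFP library of prep 1.

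Of the genes that make small RNAs, 8 of 10 matched were tested and none passed, beside 0.0249% of all rows against GFP. The dcl4 row GRMZM2G050882 was at 5.64 and 3.15 RPKM in TCP23 cells and at 7.91 and 7.61 RPKM in GFP cells, a log2 difference of −0.80 ± 0.26 (adjusted p = 0.235). DICER-LIKE 4 cuts the shorter class of phasiRNAs. In prep 3 this row was below all 10 other regulators, in prep 1 below 8 of them, and the difference from the other regulators was −0.56 ± 0.19 (adjusted p = 0.715). The reference gives the name dcl4 to 2 more rows, and these did not pass either. GRMZM2G160473 was at 17.8 and 20.7 RPKM in TCP23 cells and at 13.7 and 21.8 RPKM in GFP cells, and GRMZM2G024466 at 5.81 and 5.46 RPKM in TCP23 cells and at 6.62 and 6.53 RPKM in GFP cells. The gene dcl1, for the microRNA-making dicer, was at 23.5 and 22.5 RPKM in TCP23 cells and at 21.0 and 22.9 RPKM in GFP cells, and rmr2, a gene required to maintain repression, at 11.8 and 10.2 RPKM in TCP23 cells against 8.75 and 8.19 RPKM in GFP cells (0.35 ± 0.14, adjusted p = 0.323). The median of the 8 rows was −0.10 against GFP and −0.12 against the other regulators. It was −0.02 without the GFP library of prep 1, −0.22 without that of prep 3 and −0.06 without the TCP23 library of prep 1. The medians of the 10 other regulators against GFP ran from −0.07 to 0.13.

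Cell cycle and ribosomal protein genes, known targets of class I TCP proteins in other plants, were not called in any direction. Of all rows, 0.0213% were called in each comparison, so no call in lists of this size says little about them. Of 31 tested genes of the cell cycle, DNA replication and histones, 14 were higher and 17 lower in TCP23 cells than in GFP cells, with a median log2 difference of −0.07, and 0 higher and 7 lower had an unadjusted p below 0.05, beside 6.87% higher and 5.12% lower of all rows. Against the other regulators the median was 0.03, and 3 were higher and 0 lower at that p, beside 2.73% and 2.47% of all rows. By prep, that median was 0.085 in prep 1 and −0.017 in prep 3, so its sign differed between the preps. Without the GFP library of prep 3 the median against GFP was −0.14, and without the TCP23 library of prep 3 it was −0.03. The other regulators' medians for this list against the same GFP libraries ran from −0.22 to 0.04. The histone gene histone2b1 was at 68.8 and 66.7 RPKM in TCP23 cells and at 64.6 and 64.3 RPKM in GFP cells, and hon110 at 74.0 and 82.2 RPKM in TCP23 cells and at 74.8 and 82.6 RPKM in GFP cells. Of the 36 tested ribosomal protein genes, 6 were higher than in GFP cells, and the median was −0.27. RPL10 (GRMZM2G087233) was at 952 and 940.2 RPKM in TCP23 cells and at 1277 and 1153 RPKM in GFP cells (−0.36 ± 0.23, adjusted p = 0.561). All 10 other regulators had a median below GFP for these genes too, between −0.61 and −0.13. Set against those regulators, 28 of the 36 were higher in TCP23 cells, with a median of 0.06. By prep, this median was 0.136 in prep 1 and 0.001 in prep 3, while against GFP the median was −0.298 and −0.261. The median was thus higher against the other regulators in both preps, but close to 0 in prep 3.

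Jasmonate genes had a positive median against GFP with no call, beside 0.0213% of all rows called. Of 41 tested jasmonate synthesis and signalling genes, 28 were higher in TCP23 cells than in GFP cells, the median log2 difference was 0.19, and 10 higher and 1 lower had an unadjusted p below 0.05, beside 6.87% and 5.12% of all rows. Against the other regulators 2 were higher and 1 lower at that p, beside 2.73% and 2.47% of all rows, with a median of 0.08. Without the TCP23 library of prep 1 the median against GFP was 0.29. The allene oxide synthase gene aos1 was at 503 and 591 RPKM in TCP23 cells and at 459 and 426 RPKM in GFP cells (0.30 ± 0.21, adjusted p = 0.597). Every TCP23 value was above every GFP value, as in 19.5% of all rows. The lipoxygenase gene lox3 was at 193 and 242 RPKM in TCP23 cells and at 175 and 162 RPKM in GFP cells, and TIFY27, of the family that holds the jasmonate repressors, at 221 and 215 RPKM in TCP23 cells and at 168 and 156 RPKM in GFP cells. The oxophytodienoate reductase gene opr2 was on the other side, at 156 and 165 RPKM in TCP23 cells and at 207 and 222 RPKM in GFP cells (−0.42 ± 0.36, adjusted p = 0.684). The medians of the 10 other regulators against the same GFP libraries ran from −0.08 to 0.23.

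The pathogenesis-related genes had the highest list median against GFP, at 0.71 over 10 tested genes. Of these, 9 of 10 were higher in TCP23 cells and none was called, beside 0.0213% of all rows. The wound-induced protease inhibitor gene wip1 was at 9170 and 8004 RPKM in TCP23 cells and at 5029 and 5216 RPKM in GFP cells (0.74 ± 0.36, adjusted p = 0.410). The chitinase gene chiA was at 1759 and 2155 RPKM in TCP23 cells and at 1124 and 1085 RPKM in GFP cells (0.82 ± 0.40, adjusted p = 0.417). Neither gene overlapped between the groups, but PR10 did, at 212 and 151 RPKM in TCP23 cells and at 270.4 and 168 RPKM in GFP cells. Both TCP23 libraries lay above both GFP libraries in 19.5% of all rows. All 10 other regulators also had a positive median for this list, from 0.10 to 0.80, and against them the TCP23 median was 0.18.

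Growth-linked hormone genes gave no call, beside 0.0213% of all rows against GFP. Of 10 tested gibberellin and brassinosteroid genes the median was 0.27 against GFP and 0.14 against the other regulators. CYP734A7 encodes a cytochrome P450 of a family that inactivates brassinosteroids. Its row GRMZM5G852663 was at 14.9 and 10.8 RPKM in TCP23 cells and at 3.65 and 4.22 RPKM in GFP cells, a log2 difference of 1.58 ± 0.32 (adjusted p = 0.0596). The second row of that name, GRMZM2G047684, had nearly the same values in every library, so the 2 rows may hold shared reads and are not separate evidence. All 10 other regulators lay above GFP in both preps for GRMZM5G852663, and 4 of them lay above TCP23 in each prep, HSF2 cells with 22.0 and 13.6 RPKM highest. Against the other regulators its difference was 0.32 ± 0.24 (adjusted p = 0.977). The DELLA gene D8 (dwarf8), a repressor of gibberellin responses, was at 12.8 and 12.7 RPKM in TCP23 cells, above all 20 libraries of the other regulators (7.69 to 11.6 RPKM) and above 10.1 and 9.08 RPKM in GFP cells, but did not pass (0.39 ± 0.17 against GFP, adjusted p = 0.365, and 0.41 against the other regulators, adjusted p = 0.610).

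Of the other growth lists, the 7 tested growth-regulating factor genes had a median of 0.21 against GFP and 0.10 against the other regulators, and GRF4 was at 42.5 and 45.3 RPKM in TCP23 cells and at 36.3 and 41.1 RPKM in GFP cells. The 26 tested auxin genes had a median of −0.05 and the 27 cytokinin genes one of 0.12 against GFP. Their most abundant members were the auxin response factor gene ARF1, at 65.3 and 66.2 RPKM in TCP23 cells and 61.3 and 60.8 RPKM in GFP cells, and the cytokinin oxidase gene cko, at 54.4 and 84.8 RPKM in TCP23 cells and 35.3 and 59.9 RPKM in GFP cells. The 18 NAC factor genes had a median of 0.16, led in level by NAC1 (GRMZM2G347043) at 511 and 475 RPKM in TCP23 cells and 530.3 and 455 RPKM in GFP cells. With 1 of the 4 TCP23 and GFP libraries left out, these medians ran from 0.10 to 0.33 for growth-regulating factors and from 0.07 to 0.24 for NAC factors, in both lists lowest without the TCP23 library of prep 3, and the cytokinin median was 0.03 without that library. The other regulators' medians ran from −0.04 to 0.18 for growth-regulating factors and from 0.04 to 0.13 for NAC factors.

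Lists of metabolism, light and stress stayed without a call against GFP too. The 17 tested cell wall genes had a median of 0.08. The xyloglucan endotransglycosylase gene xet1 was at 1331 and 1594 RPKM in TCP23 cells and at 1084 and 1126 RPKM in GFP cells (0.40 ± 0.14, adjusted p = 0.279), and Laccase-7, an oxidase of lignin formation, at 1026 and 1215 RPKM in TCP23 cells and at 608 and 588 RPKM in GFP cells (0.90 ± 0.29, adjusted p = 0.231). The medians were 0.10 for 19 photosynthesis genes, −0.01 for 8 clock and photoperiod genes and −0.03 for 16 genes of mitochondrial carriers, oxidases and prohibitins. The clock gene GI followed the prep and not the construct, at 12.3 and 33.1 RPKM in TCP23 cells and 12.7 and 31.0 RPKM in GFP cells. The 27 heat shock genes had a median of −0.06 against GFP and 0.15 against the other regulators, and the only list member called against the other regulators was HSF2 (GRMZM2G088242), the row that was high in HSF2 cells. Leaving out 1 library turned the sign of 5 medians. The heat shock median was 0.12 without the GFP library of prep 1 and −0.35 without that of prep 3, the photosynthesis median was 0.19 and 0.00 in these fits, and those of the auxin, clock, cell wall and mitochondrial lists also lay on both sides of 0 over the 4 omissions. In all, 0 of 311 tested list members were called against GFP, beside 0.0213% of all rows, and limma-voom called 0 as well.

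**Figure D5:**
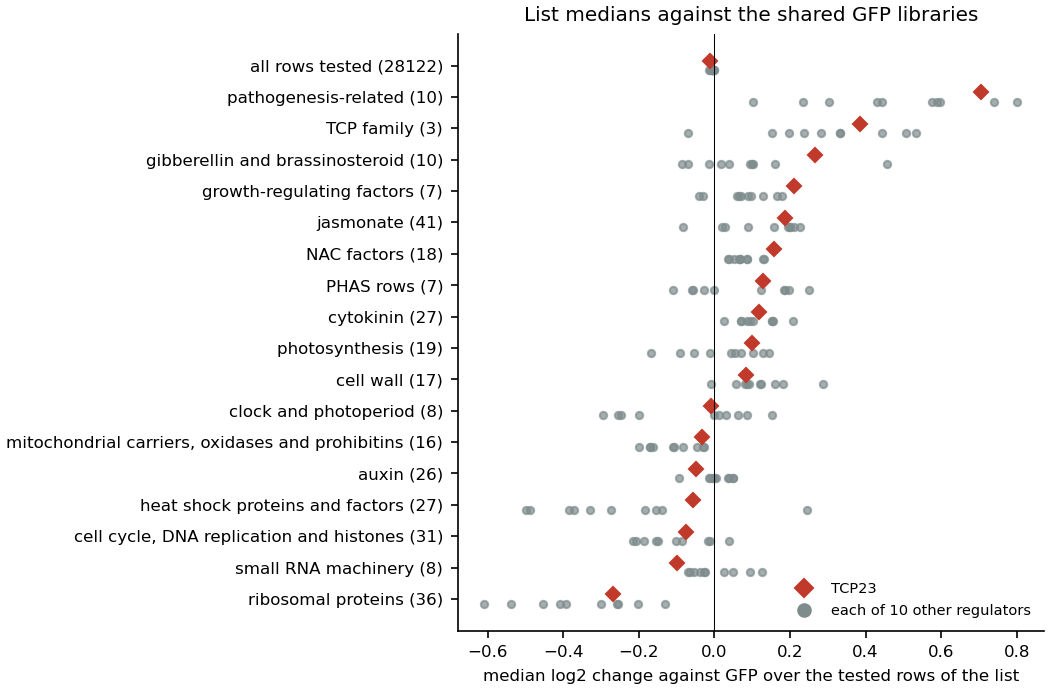
Median log2 change against GFP over the tested rows of each list (number of rows in brackets), for TCP23 as red diamonds and for each of the 10 other regulators as grey circles. All constructs are set against the same GFP libraries. The TCP23 diamond lies within the range of the other regulators for 14 of the 17 lists, below it for small RNA machinery and above it for growth-regulating factors and NAC factors. The pathogenesis-related, ribosomal, NAC factor, cytokinin and mitochondrial lists lie to one side of 0 for all constructs.

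Some genes had a name, averaged 2 RPKM or more over the 4 libraries, and differed in 1 direction in each prep and from each of the references. Of these, none of the 10 with the highest and none of the 10 with the lowest moderated t against GFP passed the adjusted test. They were chosen by these values, which are a description. The highest were mfs2, both CYP734A7 rows, ARF2, PDC, SGR2, THX20, AR6, XAT2 and AR7, with adjusted p from 0.0596 to 0.138. The auxin response factor gene ARF2 was at 3.14 and 4.07 RPKM in TCP23 cells and at 1.51 and 1.80 RPKM in GFP cells (0.92 ± 0.20, adjusted p = 0.0659), and within each prep all 10 other regulators lay between the GFP and the TCP23 value. PDC, for pyruvate decarboxylase of ethanol fermentation, was at 45.5 and 54.7 RPKM in TCP23 cells and at 37.1 and 28.96 RPKM in GFP cells (0.60 ± 0.13, adjusted p = 0.0675). Its difference was 0.83 without the GFP library of prep 1 (adjusted p = 0.0395) and 0.36 without that of prep 3 (adjusted p = 0.416), and 0.21 against the other regulators (adjusted p = 0.946). XAT2, for a xylan arabinosyltransferase, was at 7.71 and 11.0 RPKM in TCP23 cells and at 5.24 and 6.51 RPKM in GFP cells (0.61 ± 0.15, adjusted p = 0.127).

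The lowest were tk1, srp32, GBP14, LSD1, HD2b, the dcl4 row GRMZM2G050882, FEN-1, PK1, bZIP103 and mbd108, with adjusted p from 0.127 to 0.290. The thymidine kinase gene tk1 was at 13.6 and 16.4 RPKM in TCP23 cells and at 19.1 and 27.4 RPKM in GFP cells (−0.60 ± 0.15, adjusted p = 0.127). FEN-1, a flap endonuclease of DNA replication, was at 9.26 and 7.64 RPKM in TCP23 cells and at 12.7 and 10.0 RPKM in GFP cells (−0.40 ± 0.13, adjusted p = 0.235). The histone deacetylase gene HD2b was at 32.7 and 24.2 RPKM in TCP23 cells and at 41.1 and 39.1 RPKM in GFP cells (−0.50 ± 0.16, adjusted p = 0.212). In these 3 genes the TCP23 and GFP libraries did not overlap, and each lay closer to the other regulators, with log2 differences of −0.18 for tk1, −0.11 for FEN-1 and −0.18 for HD2b. The genes were picked by their t against GFP, and both TCP23 libraries lay below both GFP libraries in 20.5% of all rows.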

How the data were processed

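The authors deposited 1 table of RPKM for all 50 libraries. Per the submitters' processing notes the tools were HISAT2 2.1.0, featureCounts of Subread 1.6.3 and edgeR 3.20.9 on B73 RefGen_v3. How reads shared by paralogs were counted is not given in the sources used here. RPKM were fitted as log2(RPKM + 0.5) in limma 3.58.1 (R 4.3.3) with a variance trend, over all 50 libraries in 25 groups with prep as a block, which left 23 residual degrees of freedom. The labels state that a prep number marks a shared protoplast preparation. The prep 1 minus prep 3 difference correlated at 0.171 across rows between TCP23 and GFP. Whole reads were recovered from RPKM ratios for 30213 of 30213 rows, within 0.05 reads, and gave the depths and a limma-voom alternative. Names came from RefSeq aliases of another build, which matched 14595 rows and named 1979, so no coordinates or sequences are given. The named rows were the row of the largest rise, all rows with an adjusted p below 0.05 in either comparison, the 10 highest and 10 lowest t among named rows, and the members of 17 lists with the highest mean RPKM. The comparisons, lists and rules were chosen with earlier results of these data known. In data simulated for TCP23 against GFP over 28122 rows, 19 of 50 rows raised by 1 log2 unit, 40 of 50 raised by 2 and 2 unchanged rows were called. Rows raised by 1 lie at the edge of the rule on size, which itself limits their count. The simulation used normally distributed noise and held the other regulators at the GFP level, so it does not cover rows with few reads. Each p rests on the spread left within groups after the shared difference between preps is removed. That spread is pooled over the 25 groups and moderated by the variance trend, so it is not that of TCP23 and GFP alone.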

Additional observations from a re-analysis of the deposited data

How the results depend on the processing

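Against GFP, 6 rows were called. The count was 2 without the replicate block, 3 with limma-voom on recovered reads, and between 2 and 3 when 1 of the 4 TCP23 and GFP libraries was left out. It was 4 with a pseudocount of 1 RPKM or with no filter, and 6 under the other alternatives run against GFP, with 3 shared rows when preps 1 and 3 were fitted alone. Against the other regulators, 6 rows were called, 2 with a pseudocount of 0.1 RPKM, 1 with limma-voom, 3 and 3 without either TCP23 library, and 5 to 8 otherwise. The log2 change of GRMZM2G120151 against GFP was 13.44, and ran from 12.58 to 15.66 over the alternatives, 13.15 to 13.73 with a library left out. All 27 rows named from the GFP comparison kept their direction in every alternative, including 13.14 for GRMZM2G120151 against the other regulators. Direction entered how they were picked, so this is no separate support. The 10 highest and 10 lowest t were kept only with the same sign in both preps and against both references. The others were picked by their change from GFP. The count of list members called was 0 in all alternatives against GFP, and it was 1 when the other regulators took the place of GFP. The prep block pairs libraries of the same protoplast preparation, and dropping it ended the calls of GRMZM2G070013, GRMZM5G889052, GRMZM2G111045 and GRMZM2G422670. Where a library was left out, the lone library of that group was assumed to vary like the others. The cause of these shifts was not tested. Rows with few reads are limited by counting error.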
